A study of Mus musculus with 6 samples.

Results

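The genes described here are 9 genes of retinoic acid synthesis and signalling, Rdh10, Dhrs3, Aldh1a1, Aldh1a3, Crabp2, Cyp26b1, Rara, Rarb and Rarg, chosen by name from the 56748 genes of an RNA sequencing table. All 9 were in the table and all 9 passed the low filter. The RNA came from primary airway basal stem cells of wild-type (WT) mouse trachea, the progenitors of the airway epithelium, cultured for 4 days with small molecules. In 3 libraries the cells had received UK-5099, which blocks the mitochondrial pyruvate carrier. In the other 3 libraries they had received Y-27632, a kinase inhibitor, together with A8301 and DMH-1, which block the type I receptors of TGF-beta and BMP. No doses and no untreated cultures were given in the labels, so a difference cannot be assigned to either condition alone, and the labels do not say what else the UK-5099 medium held. Whether the replicates were separate animals or separate wells is not stated, and the p-values then cover only library-to-library spread, which may be technical. Every library held transcripts of both female and male cells, in a balance that differed between the groups (values below). Per library, 19909589 to 27037795 reads lay behind the values.

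Retinoic acid is a signalling molecule made inside cells from vitamin A. Retinol is oxidised reversibly to retinaldehyde, with RDH10 driving the forward step and DHRS3 the step back, and retinaldehyde dehydrogenases of the ALDH1A family then oxidise it irreversibly to retinoic acid. CRABP2 carries retinoic acid to the nucleus, where retinoic acid receptors (RARs), paired with retinoid X receptors (RXRs), bind DNA and switch genes on, and CYP26 enzymes destroy the ligand. In airway epithelium vitamin A is known for keeping the lining mucociliary, and its lack for squamous change. Rarb, Dhrs3, Cyp26a1, Crabp2 and Stra6 are themselves known as genes that retinoic acid induces.

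RAR and RXR pairs bind repeats of a short element, and the promoter sequences are shown because Rarb alone, of the 6 members with a promoter in the reference, carried a full repeat near its start. The RefSeq table (GRCm38.p6) held windows of 300 bases, from 250 before to 50 after a start, for 6 of the 9 genes. They were searched on both strands for the element AGGTCA, its variant AGTTCA, the variant GGGTCA and also the variant GGTTCA, each followed in the same orientation, after a spacer of 5 bases, by any of these again. This repeat, known as the classical retinoic acid response element, was found in 32 of 32851 windows (0.0974%), which belonged to 31 of 27025 genes. Rarb held it from 53 to 37 bases before its start, and of the 81 other listed pathway genes with a window only Cyp26a1 held it, on the other strand, from 32 to 16 bases before its start. Both elements are shown with the repeated parts in capitals, and 15 of their 17 bases were identical.
Rarb element: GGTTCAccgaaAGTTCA
Cyp26a1 element: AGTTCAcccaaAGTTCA
The whole Rarb window (chr14:16575427-16575726, minus strand) and the Cyp26a1 window (chr19:37697558-37697857, plus strand) follow, with the repeat in capitals. In the latter it reads as the reverse complement.
Rarb promoter: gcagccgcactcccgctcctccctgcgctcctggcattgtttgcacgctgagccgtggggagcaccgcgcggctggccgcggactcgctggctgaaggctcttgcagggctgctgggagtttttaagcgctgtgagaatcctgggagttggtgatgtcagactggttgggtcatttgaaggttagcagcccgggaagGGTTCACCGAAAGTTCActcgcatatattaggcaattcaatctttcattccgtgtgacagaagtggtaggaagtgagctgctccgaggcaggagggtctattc
Cyp26a1 promoter: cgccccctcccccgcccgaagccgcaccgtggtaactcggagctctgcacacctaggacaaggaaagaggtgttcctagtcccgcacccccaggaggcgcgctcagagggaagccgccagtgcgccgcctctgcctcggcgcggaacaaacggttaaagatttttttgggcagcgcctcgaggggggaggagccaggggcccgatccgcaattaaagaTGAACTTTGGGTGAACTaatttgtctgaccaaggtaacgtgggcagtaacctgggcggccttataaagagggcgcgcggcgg
For comparison, the first Dhrs3 window (chr4:144892577-144892876, plus strand) and the Cyp26b1 window (chr6:84593761-84594060, minus strand) held no such repeat and not even a lone copy of the element, which says only that these letters are absent from these windows.
Dhrs3 promoter: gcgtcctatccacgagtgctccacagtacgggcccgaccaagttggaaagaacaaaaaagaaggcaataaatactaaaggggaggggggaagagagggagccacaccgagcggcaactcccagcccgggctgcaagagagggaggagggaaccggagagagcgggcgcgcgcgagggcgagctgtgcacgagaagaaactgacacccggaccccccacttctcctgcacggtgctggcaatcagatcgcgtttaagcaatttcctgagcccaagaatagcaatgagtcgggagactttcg
Cyp26b1 promoter: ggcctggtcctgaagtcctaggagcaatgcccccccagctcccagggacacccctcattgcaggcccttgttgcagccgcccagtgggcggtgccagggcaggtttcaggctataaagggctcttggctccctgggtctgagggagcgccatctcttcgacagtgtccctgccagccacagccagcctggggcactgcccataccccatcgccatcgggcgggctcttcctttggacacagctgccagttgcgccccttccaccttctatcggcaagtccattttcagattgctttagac

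The 9 genes did not move together. Aldh1a3, Crabp2 and Cyp26b1 were higher with UK-5099, each by more than 2-fold, whereas Dhrs3 and Rarb were almost 6-fold lower and Rara and Rdh10 were lower by less. Rarg and Aldh1a1, which had the highest levels per length, did not pass the test. With limma and Benjamini-Hochberg adjustment over all 15704 genes tested (threshold 0.05), 7 of 9 genes were called, against 53.8% of all genes tested. Of these, 3 were higher, against 27.2% of all genes tested, and 4 were lower, against 26.6%. Higher genes made up 50.6% of all called genes here, but 39.4% after upper-quartile rescaling and 39.1% after centring on the median, which left the calls of the 9 genes as they were. Called changes of at least 2-fold numbered 5 of the 9 genes, against 10.1% of all genes tested, with 3 higher (background 4.67%) and 2 lower (background 5.48%). Of the 3 higher, Cyp26b1 was just under 2-fold after upper-quartile rescaling and after median centring (log2 fold changes of 0.998 and 0.996). In 7 of 9 genes the replicates of the groups did not overlap, against 60.8% of all genes tested. Because this was RNA from whole cultures, fewer cells of a type and less RNA per cell cannot be told apart.

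**Figure D1:**
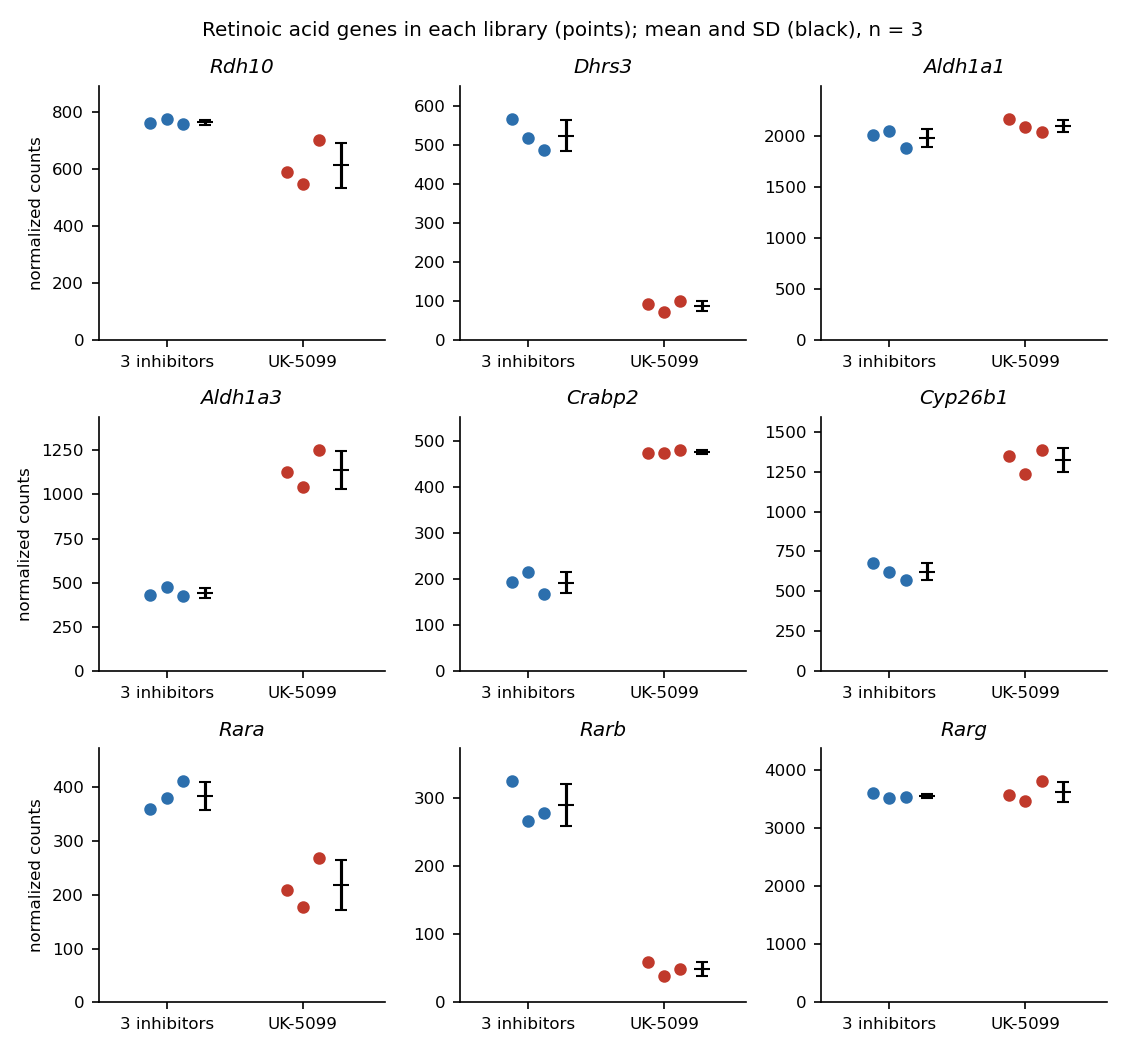
Normalized counts (vertical axis, from 0) of each of the 9 genes in the 3 libraries with the 3 inhibitors (blue) and the 3 with UK-5099 (red); black marks give the mean and SD. Dhrs3 and Rarb are far lower and Aldh1a3, Crabp2 and Cyp26b1 higher with UK-5099, while the points of Rarg and Aldh1a1 overlap.

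Among all genes tested, 1.73% had a larger log2 change in either direction than Dhrs3, and 1.74% a larger one than Rarb. The corresponding shares were 5.93% for Aldh1a3, 6.39% for Crabp2 and 9.0% for Cyp26b1, but 46.2% for Rdh10. The median log2 fold change of the 9 genes, UK-5099 minus 3 inhibitors, was 0.02, and that of all genes tested was 0.00, with changes on either side.

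**Figure D2:**
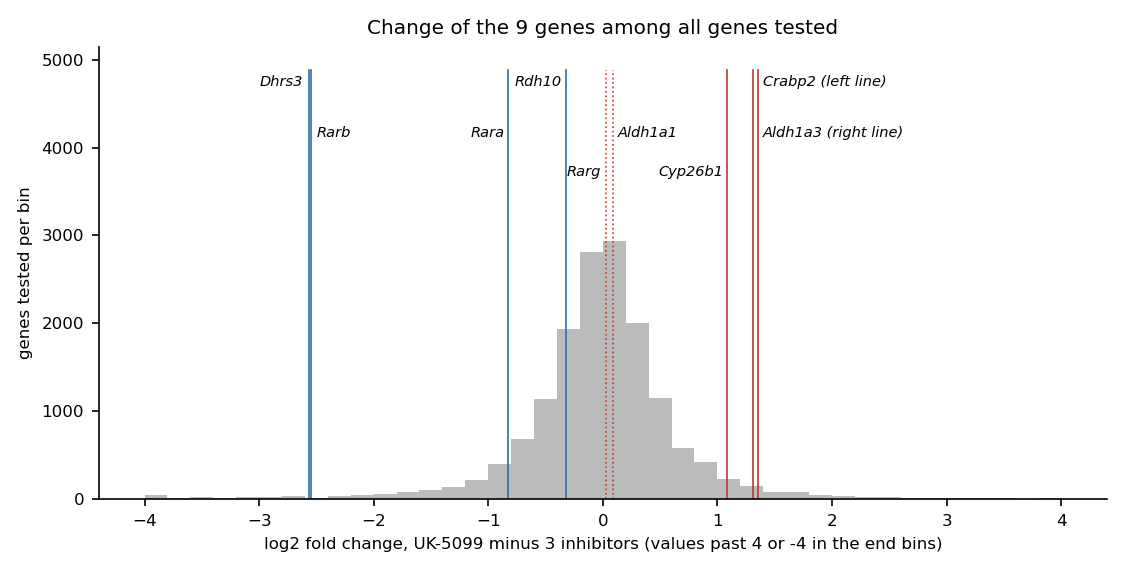
Histogram of log2 fold changes, UK-5099 minus 3 inhibitors, of all 15704 genes tested (genes per bin of 0.2), with a vertical line at each of the 9 genes; solid lines mark called genes and dotted lines the others. Dhrs3 and Rarb lie in the far left tail at -2.56 and -2.55, and Aldh1a3 lies at 1.36.

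Of the enzymes of the reversible first step, Dhrs3 fell strongly with UK-5099 and Rdh10 slightly. Dhrs3, the retinaldehyde reductase that returns retinaldehyde to retinol, stood at 92.5, 73.3 and 99.9 normalized counts in the 3 libraries with UK-5099 and at 567, 519 and 489 with the 3 inhibitors. All 3 values with UK-5099 were low, and the lowest value with the 3 inhibitors was well above the highest with UK-5099. Dhrs3 was 5.91-fold lower (log2 fold change -2.56 ± 0.12 (SE), adjusted p = 2.14e-08, limma). Rdh10, the retinol dehydrogenase of the forward step, stood at 591, 548 and 700.3 with UK-5099 and at 761, 775 and 757 with the 3 inhibitors. Replicate 3 with UK-5099 came close to the other group without reaching it. The change of Rdh10 was small (log2 fold change -0.33 ± 0.08 (SE), adjusted p = 0.00576, limma). There were between 6.40 and 7.47 normalized counts of Rdh10 per count of Dhrs3 in the UK-5099 libraries and between 1.34 and 1.55 in the others.

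Of the dehydrogenases of the last step, from retinaldehyde to retinoic acid, Aldh1a3 rose with UK-5099 and Aldh1a1 did not pass the test. Aldh1a3 stood at 1125, 1038 and 1248 normalized counts with UK-5099 and at 432, 475 and 423 with the 3 inhibitors. Every UK-5099 library was above every other library, and the gene was 2.56-fold higher (log2 fold change 1.36 ± 0.08 (SE), adjusted p = 6.9e-08, limma). Aldh1a1 stood at 2162, 2089 and 2040.0 with UK-5099 and at 2005, 2048 and 1878 with the 3 inhibitors, and the groups overlapped (log2 fold change 0.09 ± 0.05 (SE), adjusted p = 0.158, limma), with a sign that turned under other scalings of the libraries. Per kb of exon, Aldh1a3 made up 22.6% ± 1.94 of the summed level of these dehydrogenases under UK-5099 against 10.8% ± 0.352 under the 3 inhibitors (SD, n = 3). Aldh1a2, the dehydrogenase of mesoderm and mesothelium, had 0 reads in all UK-5099 libraries and at most 3.65 normalized counts in the others. Mouse Aldh1a7 is a close copy of Aldh1a1, and 3.06% of the 50-base windows of Aldh1a1 transcripts were found in other genes, so reads from these windows cannot be assigned to either.

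Crabp2 and Cyp26b1, which act on retinoic acid once it is made, rose with UK-5099. Crabp2, which delivers retinoic acid to the RARs, stood at 475, 474 and 481 normalized counts with UK-5099 and at 195, 215 and 169 with the 3 inhibitors. The UK-5099 libraries lay within a few counts of each other and above all others, a 2.47-fold difference (log2 fold change 1.31 ± 0.10 (SE), adjusted p = 5.46e-07, limma). Cyp26b1, an enzyme that hydroxylates retinoic acid to inactive products, stood at 1344, 1237 and 1384 with UK-5099 and at 675, 624 and 571 with the 3 inhibitors. Again the groups did not overlap, and Cyp26b1 was 2.12-fold higher (log2 fold change 1.08 ± 0.07 (SE), adjusted p = 2.02e-07, limma). Of the CYP26 genes it alone passed the low filter. Cyp26c1 had no read in any library, and Cyp26a1, whose promoter carries the repeat shown above, reached at most 1.03 normalized counts, which is 1 read.

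Of the receptors, Rara and Rarb fell with UK-5099 and Rarg did not pass the test. Rarg, the RAR known from skin and other stratified epithelia, stood at 3569, 3466 and 3805 normalized counts with UK-5099 and at 3593, 3516 and 3539.9 with the 3 inhibitors, overlapping values (log2 fold change 0.02 ± 0.04 (SE), adjusted p = 0.672, limma) whose difference changed sign under other scalings and without UK-5099 replicate 3. Rara, the most widely expressed RAR, stood at 208, 178 and 268 with UK-5099 and at 359.7, 379.8 and 411 with the 3 inhibitors. Its UK-5099 values were the more spread and still all lower, and it was 1.78-fold lower (log2 fold change -0.83 ± 0.13 (SE), adjusted p = 0.00024, limma). Rarb, the RAR that retinoic acid itself induces, stood at 59.9, 39.0 and 48.7 with UK-5099 and at 325, 266 and 278 with the 3 inhibitors. The groups were far apart, 5.85-fold (log2 fold change -2.55 ± 0.16 (SE), adjusted p = 1.97e-07, limma), although the UK-5099 values rested on only 40 to 59 reads.

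Rarb shares bases with a neighbour on the opposite strand, so part of its reads may be ambiguous. In the GENCODE M21 annotation, 1793 of its 3392 merged exon bases (52.9%), the part towards its 3′ end, also belong to exons of Top2b, a DNA topoisomerase gene. Whether counting used strand is not given in the sources used here, and without strand the reads of this part cannot be assigned. Top2b averaged 5232 ± 45.6 normalized counts under UK-5099 against 4817 ± 32.6 under the 3 inhibitors (SD, n = 3). The part of this overlap in the result was not tested. The levels per kb and the shares of Rarb given below carry the same uncertainty.

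Per kb of exon, Rarg made up most of the receptor level in every library. Its share was 94.2% ± 0.754 under UK-5099 against 85.7% ± 0.374 under the 3 inhibitors (SD, n = 3). Rarb made up 1.28% ± 0.266 and 6.99% ± 0.65, and Rara 4.48% ± 0.685 and 7.34% ± 0.541. The summed level of the 3 receptors was 1130.1 ± 62.7 normalized counts per kb under UK-5099 against 1221 ± 17.6 under the 3 inhibitors.

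**Figure D3:**
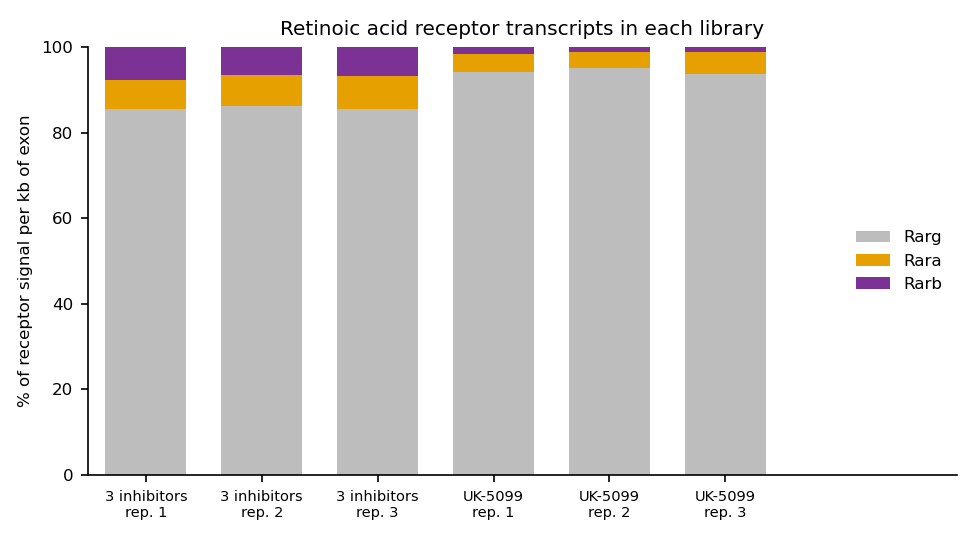
Share of Rarg, Rara and Rarb in the summed normalized counts per kb of exon of the 3 receptors (vertical axis, percent) in each library. Rarg takes between 85.4% and 86.1% with the 3 inhibitors and between 93.6% and 95.1% with UK-5099, and Rarb shrinks to a thin strip with UK-5099.

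Ordered by level per kb of exon, the 9 genes ranked differently in the groups below the top. With the 3 inhibitors Rarg led at 1046 ± 11.6 normalized counts per kb, followed by Aldh1a1 at 826 ± 36.9 (SD, n = 3). Next came Dhrs3 at 217 ± 16.3, Rdh10 at 213 ± 2.58 and Crabp2 at 207 ± 25.0, which did not differ beyond their spread. Cyp26b1 (116 ± 9.73), Aldh1a3 (99.9 ± 6.21), Rara (89.6 ± 6.05) and Rarb (85.4 ± 9.12) closed the order, and Aldh1a3, Rara and Rarb differed from their neighbours among them by less than the summed SD. With UK-5099 Rarg (1065 ± 51.1) and Aldh1a1 (876 ± 25.6) kept the lead, and Crabp2 was next at 512 ± 3.91. Aldh1a3 at 256 ± 23.8 and Cyp26b1 at 247 ± 14.2 did not differ beyond their spread, and both stood above Rdh10 at 171 ± 21.9. Rara at 51.0 ± 10.7 and Dhrs3 at 36.6 ± 5.66 did not differ beyond their summed SD, and Rarb at 14.5 ± 3.09 was last.

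Ratios between genes of the same library do not depend on how libraries are scaled, and 4 were compared. The log2 ratio of Rdh10 to Dhrs3 was 2.78 ± 0.11 under UK-5099 against 0.54 ± 0.11 under the 3 inhibitors (SD, n = 3), a difference of 2.24. The log2 ratio of Aldh1a3 to Aldh1a1 was -0.89 ± 0.16 under UK-5099 against -2.16 ± 0.05 under the 3 inhibitors (SD, n = 3), a difference of 1.27. The log2 ratio of Rarg to Rara was 4.06 ± 0.23 under UK-5099 against 3.21 ± 0.11 under the 3 inhibitors (SD, n = 3), a difference of 0.85. These 3 ratios were higher in every UK-5099 library than in any other. CRABP2 and FABP5 are known as carriers that take retinoic acid to different nuclear receptors, the RARs and PPAR-delta. The log2 ratio of Crabp2 to Fabp5 was -4.29 ± 0.08 under UK-5099 against -3.91 ± 0.13 under the 3 inhibitors (SD, n = 3), a difference of -0.38, lower in every UK-5099 library. Each of the 4 differences had p = 0.1 in an exact permutation test (two-sided, n = 3 against 3; adjusted over the 4 ratios, p = 0.1), the smallest value this design can give, so none can pass a threshold of 0.05.

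**Figure D4:**
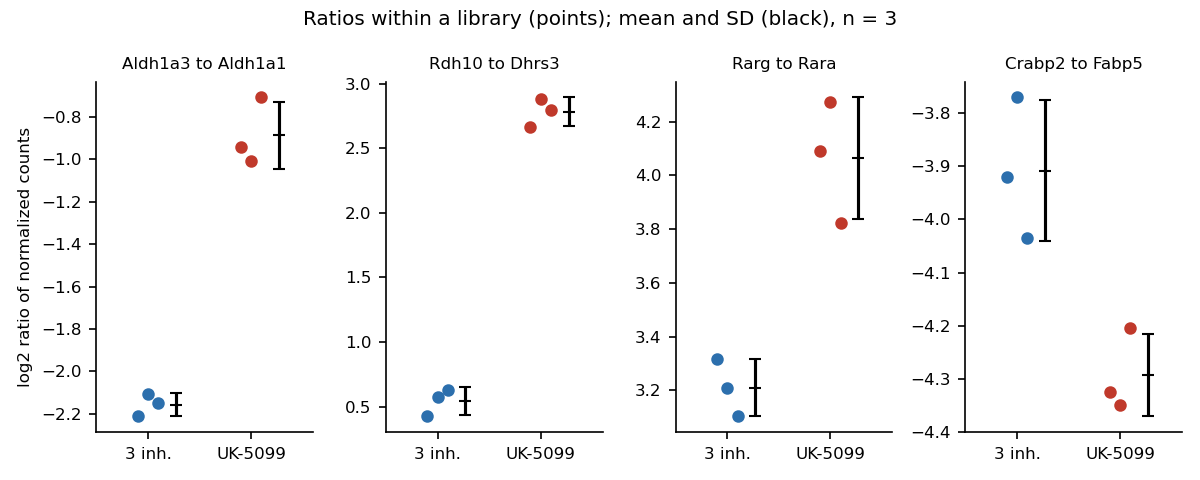
Log2 ratio of normalized counts of 2 genes within each library (vertical axis, log2 scale, a separate range in each panel) with the 3 inhibitors (blue) and UK-5099 (red); black marks give the mean and SD. The first 3 ratios are higher and the Crabp2 to Fabp5 ratio is lower in all 3 UK-5099 libraries, and the Rdh10 to Dhrs3 ratio has the widest gap, 2.24.

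Within groups, single libraries stood high or low across members. UK-5099 replicate 3, which had the fewest reads, was the highest of its group in 7 of the 9 genes and UK-5099 replicate 2 was the lowest in 8. Among the 3-inhibitor libraries, replicate 3 was the lowest in 6 genes. The widest spread within a group was that of Rarb and Rara with UK-5099, with coefficients of variation of 21.3% and 20.9%, and the narrowest that of Crabp2 with UK-5099, 0.764%.

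Genes of retinoid uptake, binding and storage differed in either direction. Of 15 listed, 9 were tested, 5 were higher (27.2% of all genes tested), 3 lower (26.6% of all genes tested) and 1 was not called (median log2 fold change 0.36). The number called ran from 6 to 8 over the fits that left out a library. Fabp5 stood at 9554, 9685 and 8885 normalized counts with UK-5099 and at 2963, 2952 and 2785 with the 3 inhibitors, 3.23-fold higher (log2 fold change 1.69 ± 0.05 (SE)). Of its 50-base windows, 5.48% occur in other genes too, so reads from these cannot be assigned. The ratio of Crabp2 to Fabp5 given above carries the same uncertainty. Rbp2 encodes a cellular retinol-binding protein best known from intestine. In the same order of groups, Rbp2 stood at 441, 510.4 and 453 and at 50.5, 43.8 and 48.4, and the groups did not overlap. Crabp1, the paralogue of Crabp2, was low in all libraries, 57.9, 48.3 and 31.7 with UK-5099 and 6.18, 9.83 and 6.39 with the 3 inhibitors (log2 fold change 2.45 ± 0.32 (SE)). Scarb1, a lipoprotein receptor that takes up carotenoids, had a log2 fold change of 0.36 ± 0.07 (SE). Stra6, the membrane receptor for retinol on its plasma carrier, went the other way, with 16.3, 12.1 and 14.6 normalized counts against 80.4, 76.0 and 82.2, 5.29-fold lower (log2 fold change -2.40 ± 0.21 (SE)). Lipe and Dgat1 were lower, with log2 fold changes of -0.30 and -0.29, and Lrat, the enzyme that stores retinol as esters, did not reach the low filter, with 6.10, 8.35 and 3.65 normalized counts under UK-5099 and 8.25, 2.68 and 9.14 under the 3 inhibitors. The adjusted p of the called genes named in this list ran from 2.08e-10 to 0.0229 (limma).

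Among other enzymes that act on retinol and retinaldehyde, 8 of 15 tested were higher (27.2% of all genes tested), 3 lower (26.6%) and 4 not called, with the remaining 10 of 25 below the filter (median log2 fold change 0.27). Rdh12, a retinaldehyde reductase best known from photoreceptors, stood at 1172, 1269 and 1186 normalized counts with UK-5099 and at 229, 188 and 162 with the 3 inhibitors, 6.31-fold higher. Adh7, an alcohol dehydrogenase of epithelia that can oxidise retinol, stood, in the same order of groups, at 5322, 5142 and 4415 and at 1680.1, 1575 and 1498. Dhrs9, a retinol dehydrogenase of epithelial cells, was 2.92-fold higher, and Rdh11, a retinaldehyde reductase, was 1.83-fold higher. The aldo-keto reductase Akr1b8 was 2.54-fold higher and Aldh1a7 1.73-fold higher. The 3 lower were Rdh13, Akr1b10 and Dhrs7, with log2 fold changes of -0.52, -0.54 and -0.15. Rdh11 and Rdh12, which can reduce retinaldehyde as Dhrs3 does, thus lay on the side opposite to it, but the list as a whole did not. Rdh13 and Akr1b10 lay on the side of Dhrs3. The 4 not called were Rdh5, Rdh14, Rdh16 and Dhrs4, with log2 fold changes of 0.27, 0.03, -0.05 and 0.09. Of other cytochrome P450 genes listed for retinoic acid, Cyp2s1, whose human counterpart oxidises it, stood at 1986, 1993 and 2152 and at 6512, 6129 and 6367, 3.10-fold lower, and Cyp1b1 was 1.79-fold higher. The adjusted p of these called genes ran from 2.68e-10 to 0.0256 (limma).

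**Figure D5:**
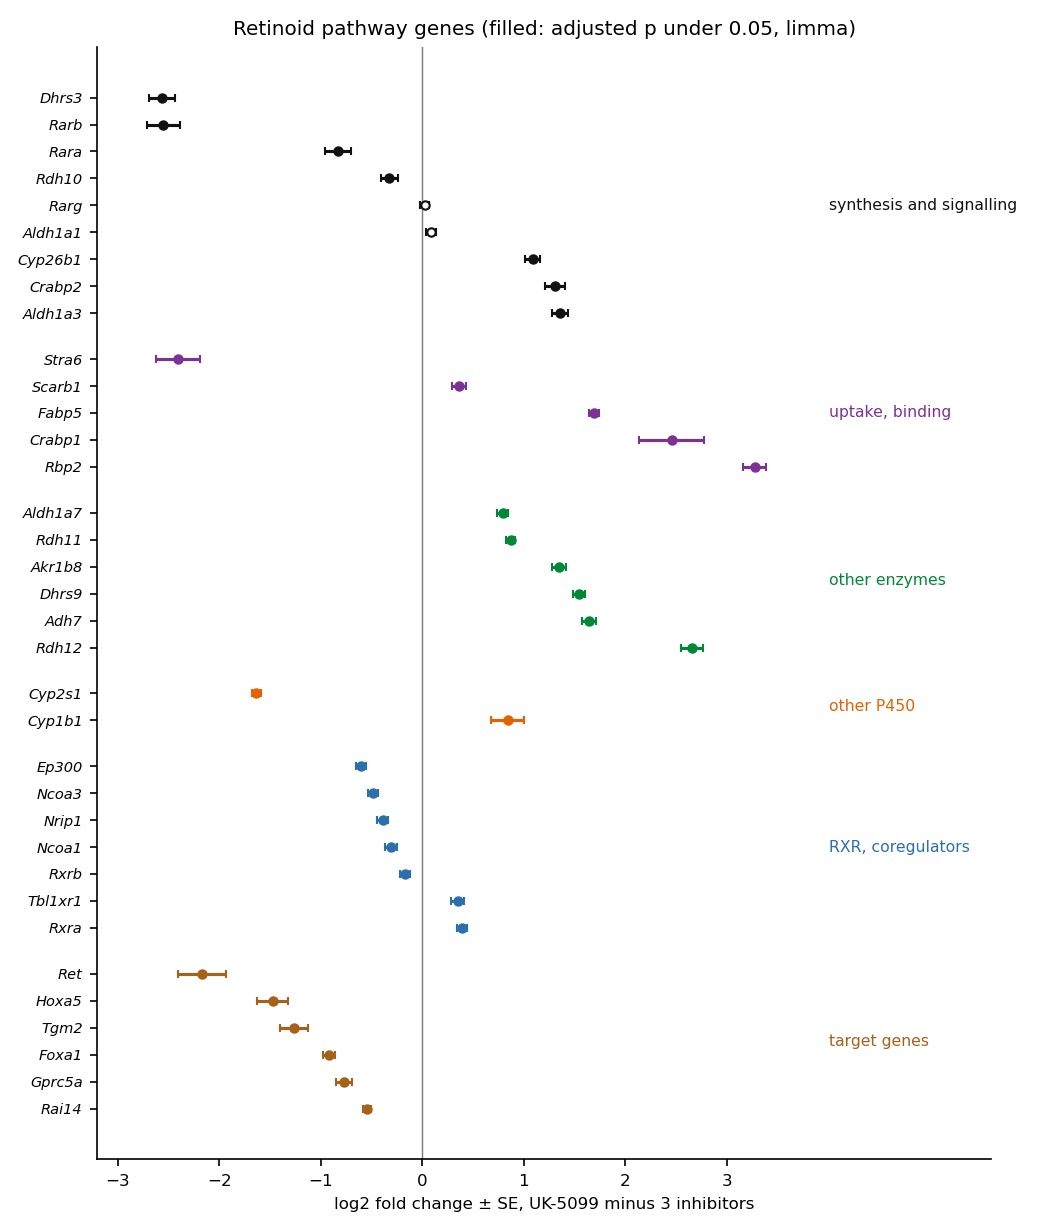
Log2 fold change with its SE (horizontal axis, UK-5099 minus 3 inhibitors) of the 9 genes and of the named genes of 5 further retinoid lists; filled points passed the test. Only the genes that the naming rule picks are drawn, and of the target genes these are the 6 with the smallest adjusted p, all left of 0, while the 3 higher target genes are not drawn. Dhrs3, Rarb and Stra6 also lie left of 0.

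The RXRs and the coregulators that RARs recruit differed little in size. Of 15 tested, 3 were higher, 7 lower and 5 not called, so that 66.7% were called, against 53.8% of all genes tested, and none by 2-fold, against 10.1% (median log2 fold change -0.07). Rxra, the main RXR of epithelium, stood at 2768, 2592 and 2806 normalized counts with UK-5099 and at 2131, 2003 and 2084 with the 3 inhibitors, non-overlapping values with a log2 fold change of 0.39 ± 0.05 (SE). Rxrb had a log2 fold change of -0.17 ± 0.05 (SE), which was no longer called without 3-inhibitor replicate 1 (adjusted p = 0.0558, limma, in a range from 0.000820 to 0.0558 over the alternatives), and Rxrg had no read in any library. The coactivator Ep300, a histone acetyltransferase, had a log2 fold change of -0.61 ± 0.05 (SE), Ncoa3 of -0.49 ± 0.05 (SE) and Ncoa1 of -0.31 ± 0.06 (SE). Nrip1, a corepressor that binds RARs with ligand, had -0.39 ± 0.05 (SE), and Tbl1xr1, a part of the corepressor complex, 0.35 ± 0.06 (SE).

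Among genes known as targets of retinoic acid in various tissues, 12 were lower with UK-5099 and 3 higher. Of 35 listed, 23 were tested and 8 were not called, while 26.6% of all genes tested were lower and 27.2% higher (median log2 fold change -0.16, against 0.00 for all genes tested), and 65.2% were called, against 53.8% of all genes tested. Foxa1, a transcription factor of airway epithelium, stood at 1667, 1530.3 and 1778 normalized counts with UK-5099 and at 3209.8, 3092 and 3097 with the 3 inhibitors. Gprc5a, a retinoic acid-induced receptor of lung epithelium, stood, in the same order of groups, at 4451, 4092 and 5319.9 and at 7950.2, 7759 and 7823, with UK-5099 replicate 3 the highest of its group and still below the others. Hoxa5, a homeobox gene of the developing trachea and lung, stood at 55.9, 48.3 and 67.0 and at 161, 153 and 163, 2.78-fold lower. Tgm2, a transglutaminase induced by retinoic acid in many cells, was 2.41-fold lower, the receptor tyrosine kinase gene Ret 4.50-fold lower and Rai14, a cytoskeletal protein gene, had a log2 fold change of -0.55 ± 0.04 (SE). The 3 higher were Lxn, Bhlhe41 and Tnfaip2, with log2 fold changes of 0.63, 1.19 and 0.19. Of further genes known as induced by it, Rarb, Dhrs3 and Stra6 lay on the lower side, whereas Crabp2, also known as induced by retinoic acid, lay on the higher side. Exons of Bhlhe41, Lipe and Tgm2 overlap a gene on the opposite strand over 13.7%, 15.7% and 17.6% of their bases, and those of Sbsn a gene on the same strand over 12.2%, so their counts are uncertain. For the called target genes, RXRs and coregulators named with a value here and in the preceding paragraph, the adjusted p ran from 1.09e-07 to 0.0174 (limma).

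Retinoids are known to lower keratinisation genes, and 8 of 11 such genes tested were higher with UK-5099, against 27.2% of all genes tested. Of 12 listed, these 8 were each higher by at least 2-fold, against 4.67% of all genes tested, 1 was lower and 2 were not called (median log2 fold change 1.73). Tgm1, the transglutaminase that cross-links the cornified envelope, stood at 2873, 2696 and 2906 normalized counts with UK-5099 and at 870.0, 888 and 794 with the 3 inhibitors. Cnfn was 5.98-fold higher, Ivl 5.11-fold higher, Sbsn 3.08-fold higher, and Sprr1a 2.03-fold higher, with adjusted p from 4.61e-11 to 1.41e-07 (limma) over these and Krt6a. Krt6a was 5.58-fold higher, but 45.7% of its 50-base windows also occur in other genes, so its level is uncertain. The 1 lower was Lor, with a log2 fold change of -0.87. This rise was known from earlier results of these data and is no independent support for the retinoid genes.

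Markers of cell types moved with the groups. Of 10 airway basal cell markers, all tested, 7 were higher with UK-5099 (27.2% of all genes tested) and 2 lower (26.6%). The 2 lower were Ngfr, 4.59-fold, and Aqp3, 1.35-fold, and Krt15 was not called. The summed level of the 10 ran from 286830 to 308411 normalized counts with UK-5099 and from 151815 to 166726 with the 3 inhibitors. Krt5 and Krt14 led the sum with UK-5099, and Krt15 and Krt5 with the 3 inhibitors. Of the 50-base windows of Krt14, 13.9% occur in other genes too, so its level is uncertain. Of 10 airway secretory cell markers, 7 were tested, 6 were lower (26.6% of all genes tested) and 1 higher (27.2%). Their sums ran from 40631 to 50261 and from 83037 to 88694, where Cbr2 and Krt4 were the most abundant. Krt4, the 1 higher, led the sum with UK-5099, at 31688 ± 3693 against 27166 ± 1449 (SD, n = 3). Cbr2 stood at 6150 ± 611 against 42903 ± 1197, and Scgb1a1, Cyp2f2 and Lypd2 were 4.56-, 3.46- and 3.40-fold lower. Fibroblast genes were nearly absent: 11 of 12 were below the filter and 5 at 0 in every library, Lum and Col1a2 among them, and Fbln1 supplied most of the sum, from 416 to 502 and from 274 to 306. Of 6 genes of smooth muscle and pericytes only Notch3, which epithelium also expresses, was tested (sums from 1722 to 2176 and from 955 to 1057). Endothelial genes summed to 51.8 to 65.9 and 157 to 188, with Vwf and Tie1 lower and Cdh5 and Emcn at 0. Leukocyte genes summed to 496 to 709 and 519 to 545, mostly Cd68, with Cd74 lower and Adgre1 at 0. Multiciliated cell genes summed to 7256 to 7959 and 6099 to 6418, nearly all Tubb4b. Of 4 tested, 2 were higher, Tubb4b and Rsph1, against 27.2% of all genes tested, and Ccdc39 and Tppp3 were not called. The other 4 of the 8 listed were below the filter. Foxj1 had at most 5 reads in a library, Dnah5 at most 6, Mcidas at most 1 and Dynlrb2 had 0. Y-linked Ddx3y stood at 422 ± 13.02 normalized counts under UK-5099 against 745 ± 34.6 under the 3 inhibitors, and Xist at 24276 ± 1528 and 14246 ± 129 (SD, n = 3). Y-linked Kdm5d, Uty and Eif2s3y were also lower with UK-5099. Xist, of female cells, was at least 14144 and Ddx3y, of male cells, at least 409 in every library. The balance of these sex-linked transcripts thus differed with the group. A different share of male and female cells and a different level of these transcripts per cell cannot be told apart here. The part of the sex balance and that of the treatment cannot be told apart either. The part of the basal and secretory markers and of the sex-linked genes in the differences of the retinoid genes was not tested.

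Among the genes most like Dhrs3, the member with the largest change, across the 6 libraries were Wfdc2, Plekhh1, Arfgef3 and Mgat3, with Pearson correlations of log2 values from 0.9995 to 0.9998. The 6 points share the contrast between the groups. With Dhrs3, 617 of 12145 genes considered had a correlation above 0.99, so values above this cut were not rare. The cut is looser than the values of the genes named. Wfdc2, a secreted protein gene of airway epithelium, stood at 2797 ± 198 normalized counts under UK-5099 against 6773 ± 267 under the 3 inhibitors (SD, n = 3). The genes most like Rarg, the member with the highest mean count, were Mto1, Pacs1, Zbtb22, Srsf11 and Hcfc1 (r from 0.984 to 0.996), none of them called by the test.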

How the data were processed

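RNA was measured in 6 libraries, 3 per group, as described above. The kit was VAHTS Universal V8, per the labels. HISAT2 2.1.0, DESeq2 1.36.0 and GRCm39 appear in the submitters' processing notes without a role. No tool for counting, strand setting or annotation is given in these sources. The authors deposited the log2 of read counts scaled by library, a form other than plain counts, in which a text cell stands for 0. These were raised back to normalized counts. Of 57107 rows, 359 repeated a gene identically, which left 56748 genes. Divided by the worth of 1 read, 99.988% to 99.992% of nonzero values per library came out whole (within 0.02), and recovered reads ran from 19909589 to 27037795 per library.

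The 15704 genes averaging 10 normalized counts or more were fitted as log2(normalized count + 1) with limma 3.58.1 in R 4.3.3 (trend, two-sided), and p was adjusted by Benjamini-Hochberg over all of them at a threshold of 0.05. Fold changes are on this log2 scale, which understates those of low genes. Errors are SD over libraries or SE of the fit. Ratios were compared with exact permutation tests. Levels per kb used merged exon lengths of GENCODE M21 (GRCm38), and promoters came from RefSeq (GRCm38.p6). The repeats with spacers of 1 and 2 bases were searched too, with no match in the members' windows. The members and lists were chosen with earlier results of these data known. Named genes were the 9 members, a set of carriers and receptors whatever their result, up to 6 called genes of each list by smallest adjusted p, the most abundant markers and the most correlated genes. Genes named as the remainder of a list (lower, higher, not called or below the filter), the sex-linked genes and Top2b were picked with their values in view. Some genes that the rule names are not reported here. The fit was run on simulated counts in which few genes changed, unlike in these data, as a check of the code only. Alternatives were 2 other scalings (upper quartile of genes with any read, and median), no low filter or a minimum mean of 50, pseudocounts of 0.5 and 5, limma without trend or robust, the replicate number as a block, limma-voom on recovered reads, and each library left out. Scripts used Python 3.11.15.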

Additional observations from a re-analysis of the deposited data

How the results depend on the processing

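All 7 called members kept their direction and their call in the 16 alternatives, and their number stayed at 7. Their log2 fold changes ran from -2.66 to -2.43 for Dhrs3, from -2.70 to -2.39 for Rarb and from -0.99 to -0.69 for Rara. The ranges were from -0.42 to -0.25 for Rdh10, from 1.27 to 1.42 for Aldh1a3 and from 1.22 to 1.39 for Crabp2. Cyp26b1 ran from 0.996 to 1.14, just under 2-fold after the 2 other scalings. The highest adjusted p of the 7 was 0.0381 (limma), for Rdh10. The genes that were not called changed sign: Aldh1a1 had a log2 fold change of -0.00112 after upper-quartile rescaling and -0.00317 after median centring, and Rarg had -0.0621 and -0.0641 in these. For these scalings the cause is their construction: they moved the median of all genes tested to -0.09, and the higher share among the calls from 50.6% to 39.4% and 39.1%. Over the fits that left out a library, Rarg ran from -0.0132, without UK-5099 replicate 3, to 0.0540, and the cause was not tested. With a minimum mean of 50, Stra6 and Crabp1 gave no value. Without 3-inhibitor replicate 1, Rxrb was no longer called at -0.16. Over the fits that left out a library, called genes ranged from 7351 to 9126 and other pathway genes from 49 to 57, against 55. The 4 ratio differences kept their direction, but no p of these small exact tests can pass the threshold.

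Deviations of samples with the same replicate number were weakly correlated at most (-0.017, 0.116 and -0.0886 over 15704 genes). Such values cannot settle whether the number pairs the samples. With the replicate number as a block, 8423 genes were called instead of 8449 and the members called stayed at 7, and not every library correlated best with its own number. Among the 9 members, depth limits Rarb and Dhrs3 with UK-5099 most, at 40 to 59 and 79 to 91 reads per library.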

Other observations

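The repeat with a spacer of 5 bases that the Rarb promoter holds was found near the start of 31 genes, of which 17 were in the table by symbol and 7 passed the low filter. Of these 7, 5 were called, against 53.8% of all genes tested, 2 of them lower and 3 higher with UK-5099. They are named after their values were seen. Beside Rarb the lower gene was Ppbp, a platelet chemokine gene, at 2208 ± 121.73 normalized counts under UK-5099 against 2778 ± 227.37 under the 3 inhibitors (SD, n = 3). Blvrb, which encodes biliverdin reductase B, stood at 599.9 ± 7.30 normalized counts under UK-5099 against 266 ± 13.05 under the 3 inhibitors. Prss27, a serine protease gene of squamous epithelium, stood at 346 ± 37.30 normalized counts under UK-5099 against 202 ± 30.59 under the 3 inhibitors. Cfap45, a gene of the ciliary axoneme, stood at 115 ± 16.98 normalized counts under UK-5099 against 47.0 ± 11.96 under the 3 inhibitors. The adjusted p of the 5 ran from 1.17e-07 to 0.000928 (limma). A match in a window is a description of the letters and not a site of binding.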
